A study of Mus musculus with 18 samples.

Results

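The Gadd45 family of ED1SQ4 murine lung cancer cells was examined across 6 conditions of an RNA-Seq experiment. Its members are *Gadd45a*, *Gadd45b* and *Gadd45g*, and all 3 were found by symbol among the 55450 genes of the count table. The family was chosen by measured values of these data, since *Gadd45b* was already known to be higher after CYC065 in 2N cells than in 4N cells. The values of *Gadd45b* in the comparisons of drug and ploidy are therefore a description, and the open question was whether *Gadd45a* and *Gadd45g* showed the same pattern. All 3 genes were selected with earlier results of these data in view.

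The ED1SQ4 line was derived from lung tumors of mice that carry a cyclin E transgene, and all conditions used this 1 line. Cells were cultured for 72 hours with vehicle or with 0.5 µM CYC065, an inhibitor of the cyclin-dependent kinases CDK2 and CDK9. After staining of DNA, cells were sorted by DNA content into diploid (2N) and polyploid (4N) populations, and total RNA of unsorted cells was sequenced for either treatment. The conditions were vehicle unsorted, vehicle 2N, vehicle 4N, CYC065 unsorted, CYC065 2N and CYC065 4N. A DNA content of 4N is also that of a diploid cell that has copied its DNA and has not yet divided, and these cells cannot be told apart from polyploid cells by this sort.

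Each condition has 3 columns in the table. Their titles number them as replicates, whereas their library names give them as parts of 1 library, and no label says whether they came from separate cultures. Among the 3 columns of a condition, genes with whole counts varied as sampling noise alone would, with a chi-square per degree of freedom between 0.991 and 1.022. On this evidence the columns were summed and counted as 1 library per condition, so that no test between conditions was possible. The 6 libraries held between 54750206 and 62795545 counts. An interval below is the 95% interval of counting error, and spread between cultures was not measured. The labelled tissue is lung, but the lung lineage genes *Nkx2-1*, *Sftpd* and *Scgb1a1* were at 0 in every library. Of the other 3 lung lineage genes, *Sftpc* and *Sftpb* did not exceed 0.075 CPM and *Foxa2* lay between 2.32 and 7.6 CPM, highest in CYC065 2N cells. The epithelial markers were near 0, with a sum of 6 genes between 0.429 and 1.43 CPM, the unit of counts scaled to equal library sizes. The sum of 5 fibroblast markers was between 5820 and 15100 CPM, and that of 5 leukocyte markers between 3.51 and 25.1 CPM. Most of the latter was *Cd68*, a lysosomal protein gene of macrophages and other cells, with 3.37 and 24.4 CPM in vehicle and CYC065 2N cells and 3.53 and 19.2 CPM in 4N cells, while *Ptprc*, the pan-leukocyte marker CD45, did not exceed 0.015 CPM. The part of these genes in the results below was not tested. The 4 proliferation markers summed to 2120 and 2790 CPM in vehicle 2N and 4N cells, and to 686 and 1480 CPM in CYC065 2N and 4N cells. *Mki67*, *Top2a* and *Cdk1* were higher in 4N cells. *Pcna* was lower there, with 382 and 335 CPM in vehicle 2N and 4N cells and 155 and 147 CPM in CYC065 2N and 4N cells.

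Gadd45 proteins are small, acidic, largely nuclear proteins without known enzymatic activity of their own, and they act by binding other proteins. They are induced by stress and DNA damage, bind the kinase MAP3K4 upstream of p38 and JNK, and interact with PCNA, with p21 and with the CDK1 and cyclin B1 complex at the G2/M checkpoint. They also take part in active DNA demethylation with the excision repair machinery. *Gadd45a* is a classical target of p53. *Gadd45b* is a target of NF-kB and TGF-beta signaling that binds and blocks the kinase MAP2K7. *Gadd45g* is induced by cytokines and differentiation signals.

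*Gadd45b* lay between 7.72 and 11.8 CPM in 5 of the 6 conditions and stood apart in CYC065 2N cells. The gene is ENSMUSG00000015312.9 at chr10:80930073-80932204 on the plus strand of mm10, with 1589 bases of annotated exons and no overlapping gene. Its 3 columns held 147, 153 and 144 counts in vehicle 2N cells and 161, 153 and 166 counts in vehicle 4N cells. They held 586, 568 and 554 counts in CYC065 2N cells and 208, 204 and 205 counts in CYC065 4N cells. Every column of CYC065 2N cells lay above every column of the other 5 conditions. In unsorted cells the columns held 178, 182 and 195 counts after vehicle and 201, 219 and 212 counts after CYC065.

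After scaling to library composition, the *Gadd45b* level was 7.72 CPM (interval 7.02 to 8.47) in vehicle 2N cells and 30.1 CPM (28.7 to 31.5) in CYC065 2N cells. In 4N cells it was 7.95 CPM (7.26 to 8.69) after vehicle and 9.26 CPM (8.54 to 10.02) after CYC065. The treated 2N level stood 3.89-fold above its vehicle, while the treated 4N level stood 1.16-fold above its own. The unsorted levels were 9.53 CPM (8.75 to 10.4) after vehicle and 11.8 CPM (10.9 to 12.7) after CYC065. The unsorted treated level lay between the levels of the sorted treated populations, closer to that of 4N cells. In order, vehicle 2N and vehicle 4N did not differ beyond their counting error, nor did CYC065 4N and vehicle unsorted. The step from CYC065 unsorted to CYC065 2N was 1.35 on the log2 scale (1.22 to 1.49).

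*Gadd45g* shared the 2N pattern of *Gadd45b* among the sorted populations at a lower level. The gene is ENSMUSG00000021453.2 at chr13:51846678-51848468 on the plus strand, with 1173 bases of exons and no overlapping gene. Its columns held 27, 32 and 38 counts in vehicle 2N cells and 136, 133 and 171 counts in CYC065 2N cells. They held 24, 28 and 29 counts in vehicle 4N cells and 49, 55 and 54 counts in CYC065 4N cells. Among the sorted libraries, the columns of CYC065 2N cells again lay above all others. In contrast to *Gadd45b*, the unsorted vehicle library was also high, with 118, 130 and 124 counts, and the unsorted CYC065 library had 68, 71 and 72 counts.

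The level of *Gadd45g* was 1.69 CPM (1.37 to 2.06) in vehicle 2N cells and 7.74 CPM (7.04 to 8.5) in CYC065 2N cells, a 4.58-fold difference. It was 1.34 CPM (1.07 to 1.67) in vehicle 4N cells and 2.37 CPM (2.02 to 2.77) in CYC065 4N cells, a 1.76-fold difference. The sorted vehicle levels rest on 97 and 81 counts, and they did not differ from each other beyond counting error. Unsorted cells had 6.39 CPM (5.75 to 7.07) after vehicle and 3.93 CPM (3.42 to 4.5) after CYC065. The vehicle unsorted level was thus second to that of CYC065 2N cells, and the step between them was 0.28 on the log2 scale (0.08 to 0.48).

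*Gadd45a* did not share the 2N pattern, as it was high after CYC065 in both sorted populations. The gene is ENSMUSG00000036390.8 at chr6:67035096-67037457 on the minus strand, with 1764 bases of exons. Its columns held 73, 59 and 72 counts in vehicle 2N cells and 559, 559 and 555 counts in CYC065 2N cells. They held 70, 90 and 70 counts in vehicle 4N cells and 549, 605 and 506 counts in CYC065 4N cells. The counts of both treated sorted populations lay far above those of both sorted vehicle populations. After scaling, the columns lay between 29.3 and 29.5 CPM in CYC065 2N cells and between 22.8 and 27.2 CPM in CYC065 4N cells, without overlap. Counted as parts of 1 library, these columns show the sampling of reads only. With an assumed coefficient of variation of 0.2 between cultures, the interval of this 4N to 2N log2 ratio ran from -1.05 to 0.56. Unsorted cells had 262, 252 and 251 counts after vehicle and 704, 724 and 756 counts after CYC065, the highest of the 6 conditions.

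The level of *Gadd45a* was 3.55 CPM (3.08 to 4.07) in vehicle 2N cells and 29.4 CPM (28.1 to 30.9) in CYC065 2N cells, 8.29-fold apart. It was 3.81 CPM (3.33 to 4.34) in vehicle 4N cells and 24.9 CPM (23.7 to 26.1) in CYC065 4N cells, 6.53-fold apart. Unsorted cells had 13.1 CPM (12.2 to 14.1) after vehicle and 40.7 CPM (39.0 to 42.4) after CYC065. Along this order, the sorted vehicle levels were the neighbors that did not differ beyond counting error. The gene overlaps *E230016M11Rik* on the opposite strand, and whether the counting used strand is not given in the sources used here. *E230016M11Rik* had 34 to 99 counts per library, at most 18.6% of those of *Gadd45a*, and was assigned 38 and 56 counts in vehicle and CYC065 2N cells.

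**Figure D1:**
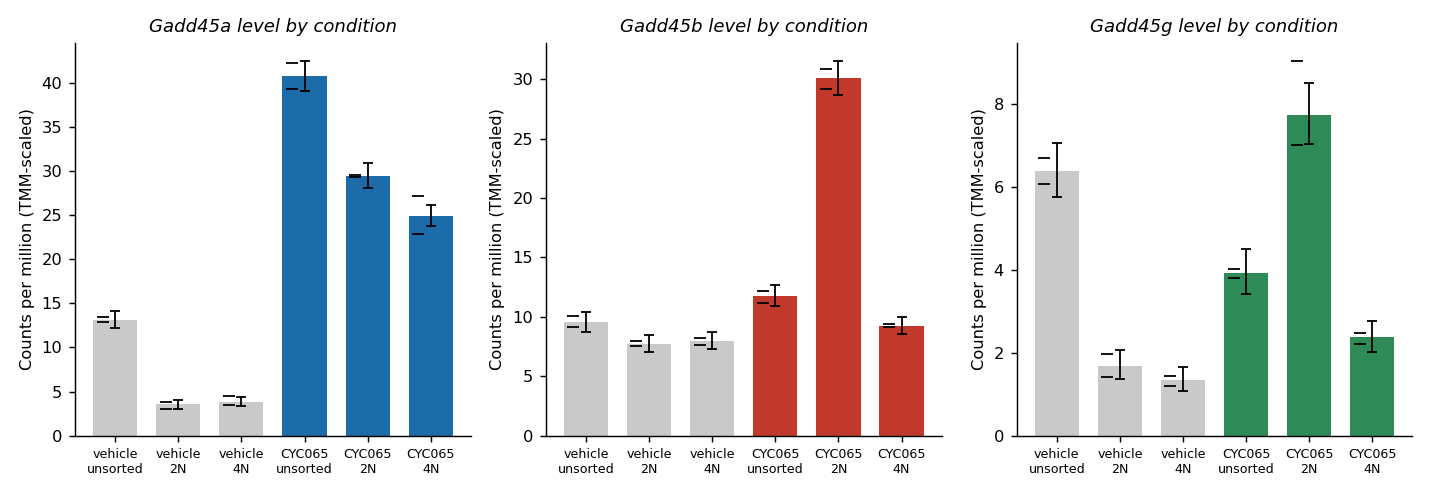
Levels of the 3 Gadd45 genes in CPM (y axes start at 0, each with its own range) in the 6 conditions, with vehicle in grey and CYC065 in color. Bars show the summed library, error bars the 95% counting interval, and the short marks to their left the lowest and highest of the 3 columns. *Gadd45b* is highest in CYC065 2N cells at 30.1 CPM, *Gadd45g* has a second high level of 6.39 CPM in vehicle unsorted cells, and *Gadd45a* is high in all 3 treated conditions at 24.9 to 40.7 CPM.

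The comparison of CYC065 with vehicle in 2N cells asked which genes the drug moved in the diploid population. All 3 members exceeded a log2 ratio of 1, the limit taken as beyond the fold. This limit was passed upward by 16.2% and downward by 11.5% of the 14095 genes with at least 30 counts in 1 of the libraries compared. The log2 ratio was 3.05 (2.84 to 3.27) for *Gadd45a*, 1.96 (1.81 to 2.12) for *Gadd45b* and 2.19 (1.88 to 2.53) for *Gadd45g*. Of the genes tested, 2.13%, 5.86% and 4.76% had ratios as high as these. *Gadd45b* and *Gadd45g* differed by 0.23 (-0.12 to 0.58), which was within counting error, and *Gadd45b* lay below *Gadd45a* by a difference of -1.09 (-1.35 to -0.83). Since this contrast was used to choose the family, the count of 3 members is a description.

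In 4N cells, 1 of the 3 members was beyond the fold, against 15.5% of 14183 genes that were higher and 10.1% that were lower. That member was *Gadd45a*, with a log2 ratio of 2.71 (2.51 to 2.91). *Gadd45b* had 0.22 (0.05 to 0.40), a ratio that 40.8% of genes reached or passed. *Gadd45g* had 0.82 (0.43 to 1.23), which lay above *Gadd45b* by 0.60 (0.18 to 1.02) and below the limit. With an assumed coefficient of variation of 0.2 between cultures, the interval of *Gadd45g* in 4N cells ran from -0.07 to 1.71 and that of *Gadd45b* from -0.60 to 1.04.

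The difference between the responses, 4N minus 2N, compares the members directly. It was -1.74 (-1.97 to -1.51) for *Gadd45b*, -1.38 (-1.88 to -0.88) for *Gadd45g* and -0.34 (-0.63 to -0.06) for *Gadd45a*. Over the 14485 genes tested, 3.6% were lower and 3.5% higher by more than 1 in this difference. *Gadd45g* and *Gadd45b* differed in it by 0.36 (-0.18 to 0.91), which includes 0. *Gadd45a* differed from both, with -1.40 (-1.76 to -1.03) for *Gadd45b* minus *Gadd45a* and -1.03 (-1.61 to -0.46) for *Gadd45g* minus *Gadd45a*. The assumed variation of 0.2 between cultures widened the intervals to -2.90 to -0.59 for *Gadd45b*, -2.61 to -0.14 for *Gadd45g* and -1.51 to 0.82 for *Gadd45a*.

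*Gadd45b* and *Gadd45g* were therefore 2 of the 373 genes, 2.58% of those tested, whose ratio passed 1 in 2N cells and was lower by over 1 in 4N cells. Of these, 130 had 100 or more counts in at least 1 library. *Gadd45a* was among the 1839 genes, 12.7%, whose ratio passed 1 in both populations. The number of Gadd45 genes in either class follows in part from how the family was chosen.

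**Figure D2:**
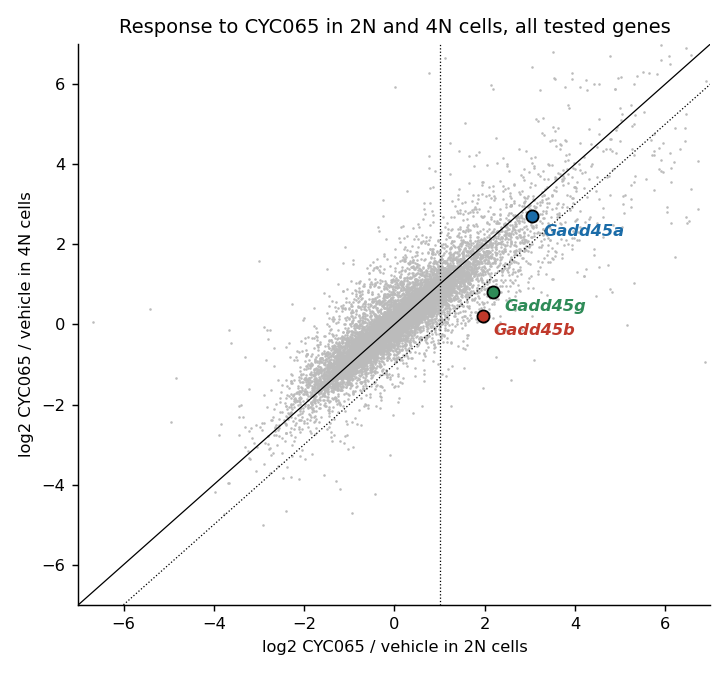
Log2 ratio of CYC065 to vehicle in 2N cells (x axis) and 4N cells (y axis) for 14485 tested genes in grey, of which 16 lie outside the axes, with the 3 Gadd45 genes in color. The solid line marks equal responses, the dotted diagonal a 4N response lower by 1, and the dotted vertical line a ratio of 1 in 2N cells. *Gadd45b* and *Gadd45g* lie to the right of both dotted lines, whereas *Gadd45a* lies near the solid line at 3.05 and 2.71.

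The treated sorted populations were next set against each other. In CYC065-treated cells, 4N levels of *Gadd45b* and *Gadd45g* were equally far below 2N levels, with log2 ratios of -1.70 (-1.83 to -1.57) and -1.70 (-1.98 to -1.44). These were 3.24-fold and 3.26-fold differences. Among 14184 genes, 2.09% were lower and 1.49% higher by more than 1, and 62 and 60 genes were as low as *Gadd45b* and *Gadd45g*. *Gadd45b* was chosen with its ploidy and drug values known, so its rank is a description. *Gadd45a* had -0.24 (-0.34 to -0.14). In the same comparison *Ccnb1*, the cyclin of mitotic entry, was higher in 4N cells by 1.49 (1.42 to 1.56) and *Cdk1*, its kinase, by 1.02 (0.96 to 1.08). The share of cells in each phase of the cycle was not measured in these libraries, and in bulk RNA fewer cells of a type and less RNA per cell cannot be told apart.

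In vehicle-treated cells the members did not differ between the sorted populations beyond counting error. The log2 ratio of 4N to 2N cells was 0.10 (-0.17 to 0.38) for *Gadd45a*, 0.04 (-0.15 to 0.23) for *Gadd45b* and -0.33 (-0.77 to 0.11) for *Gadd45g*. Here 1.71% of 13364 genes were lower and 0.98% higher by more than 1. The interval of *Gadd45g* allows a 4N level as low as 0.585 of that of 2N cells, so a smaller difference was not detectable at this depth.

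Unsorted cells gave a different account of the drug response. The log2 ratio of CYC065 to vehicle was 1.63 (1.51 to 1.75) for *Gadd45a*, 0.31 (0.14 to 0.47) for *Gadd45b* and -0.70 (-0.95 to -0.45) for *Gadd45g*. *Gadd45a* was the 1 member beyond the fold, a limit passed upward by 12.6% and downward by 12.6% of 14084 genes. *Gadd45g* was higher after CYC065 in both sorted populations and lower after CYC065 in unsorted cells, by a ratio of 0.616 (0.517 to 0.731). With the assumed variation between cultures, the interval of this log2 ratio ran from -1.53 to 0.14. Relative to the mean of the 2N and 4N responses, the unsorted response was lower by a difference of -2.20 (-2.55 to -1.86) for *Gadd45g*, -1.25 (-1.43 to -1.06) for *Gadd45a* and -0.79 (-0.99 to -0.58) for *Gadd45b*. Such a difference below -1 was found in 7.88% of 14762 genes.

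For *Gadd45a* and *Gadd45g*, unsorted and sorted cells differed more after vehicle than after CYC065. Unsorted vehicle cells exceeded the mean of the sorted vehicle populations by 2.08 (1.82 to 2.34) for *Gadd45g* and 1.83 (1.66 to 2.00) for *Gadd45a*, against 0.28 (0.13 to 0.43) for *Gadd45b*. Of 13810 genes, 7.77% were higher and 3.2% lower by more than 1 in this comparison. In CYC065-treated cells the same difference was 0.59 (0.51 to 0.66) for *Gadd45a*, -0.50 (-0.63 to -0.37) for *Gadd45b* and -0.12 (-0.36 to 0.11) for *Gadd45g*, where 3.65% of 14396 genes were higher and 3.11% lower. Of the genes beyond the fold there, 54.1% were higher, and 32.5% were when libraries were scaled by their size alone, which moved the median of all genes by -0.19 in this comparison and by -0.11 in the unsorted drug response. The unsorted and sorted libraries differ in sorting, and the staining and handling of unsorted cells are not given in the sources used here, so population and handling cannot be told apart.

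**Figure D3:**
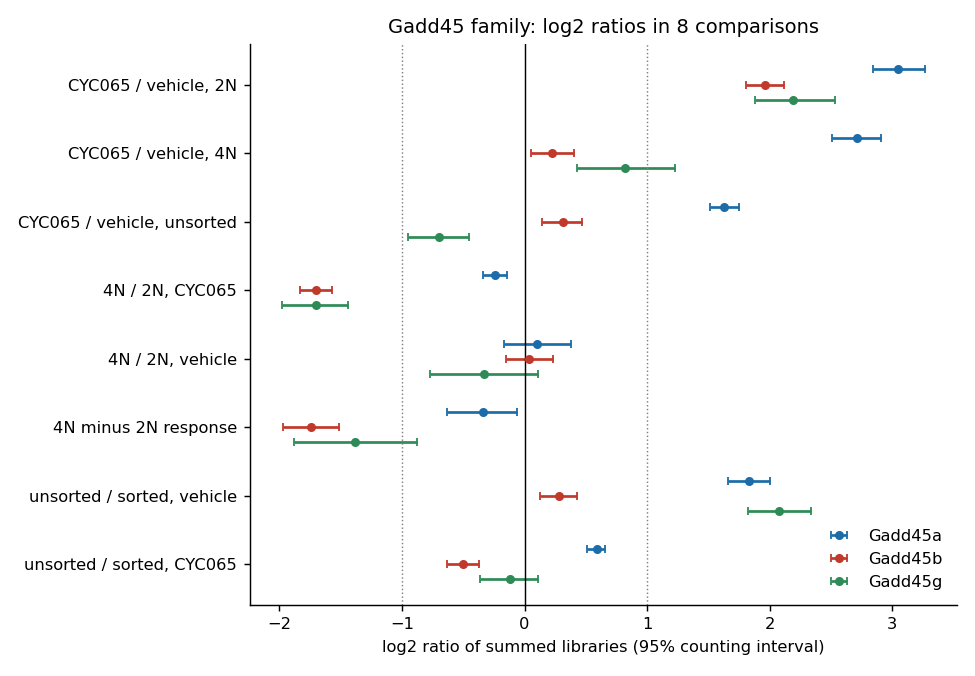
Log2 ratios (x axis) of the 3 Gadd45 genes in 8 comparisons (rows), with 95% counting intervals as bars and dotted lines at -1 and 1. *Gadd45b* and *Gadd45g* lie together at -1.70 in the ratio of 4N to 2N treated cells, apart from *Gadd45a* at -0.24, whereas *Gadd45a* and *Gadd45g* lie together at 1.83 and 2.08 in the ratio of unsorted to sorted vehicle cells.

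Levels were also divided by exon length so that the members could be compared with each other. In sorted vehicle cells *Gadd45b* was the most abundant member, at 4.86 CPM per kilobase in 2N and 5.00 in 4N cells, followed by *Gadd45a* at 2.01 and 2.16 and *Gadd45g* at 1.44 and 1.14. *Gadd45b* made up 58.5% and 60.2% of the length-scaled sum of the family in these populations. After CYC065, the makeup of the sum differed between the sorted populations. In 2N cells *Gadd45b* and *Gadd45a* were at 18.9 and 16.7 CPM per kilobase, 44.8% and 39.6% of the sum, while in 4N cells *Gadd45a* was at 14.1 and made up 64.2%. The summed level of the family was 8.31 and 8.30 CPM per kilobase in vehicle 2N and 4N cells, and 42.2 and 21.9 after CYC065. In unsorted cells it was 18.9 after vehicle and 33.9 after CYC065, of which *Gadd45a* made up 39.4% and 68.2%.

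**Figure D4:**
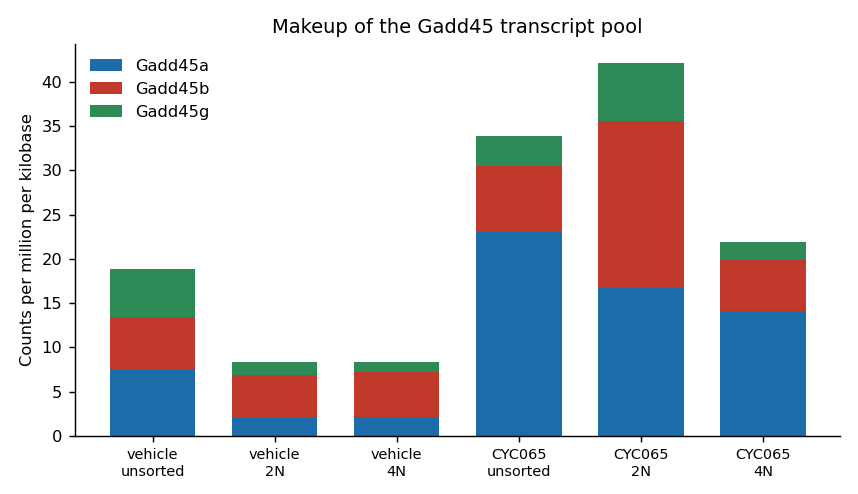
Length-scaled levels of the 3 Gadd45 genes in CPM per kilobase of exon (y axis from 0), stacked by condition (x axis). The stack is tallest in CYC065 2N cells at 42.2, where *Gadd45b* is 44.8% of it, and is 21.9 in CYC065 4N cells, where *Gadd45a* is 64.2%.

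The promoter sequences of the members are shown because *Gadd45b* and *Gadd45g* moved together in the sorted populations and *Gadd45a* did not. Each run holds 230 bases on the strand of the gene, from 250 to 21 bases before the RefSeq transcription start of build GRCm38.p6. Capitals mark matches on either strand to short promoter motifs. The TATA box, a core element that places the start site, was searched as TATAAA. The CCAAT box, a common element bound by the factor NF-Y, was searched by the letters of its name. The octamer, a site of POU factors, was searched as ATTTGCAT. The GC box, a site of SP factors, was searched as GGGCGG. The E-box, a site of MYC and related factors, was searched as CACGTG. The runs lie at chr6:67037428-67037657 (minus strand) for *Gadd45a*, chr10:80929841-80930070 (plus strand) for *Gadd45b* and chr13:51846425-51846654 (plus strand) for *Gadd45g*.
Gadd45a: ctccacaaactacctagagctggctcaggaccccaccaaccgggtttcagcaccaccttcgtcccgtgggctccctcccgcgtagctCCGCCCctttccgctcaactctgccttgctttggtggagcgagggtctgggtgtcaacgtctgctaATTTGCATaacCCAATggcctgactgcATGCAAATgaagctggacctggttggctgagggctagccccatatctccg
Gadd45b: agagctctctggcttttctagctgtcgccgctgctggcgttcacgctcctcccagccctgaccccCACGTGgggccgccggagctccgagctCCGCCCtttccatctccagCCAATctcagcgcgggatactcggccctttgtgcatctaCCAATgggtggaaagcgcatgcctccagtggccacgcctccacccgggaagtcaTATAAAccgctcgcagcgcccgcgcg
Gadd45g: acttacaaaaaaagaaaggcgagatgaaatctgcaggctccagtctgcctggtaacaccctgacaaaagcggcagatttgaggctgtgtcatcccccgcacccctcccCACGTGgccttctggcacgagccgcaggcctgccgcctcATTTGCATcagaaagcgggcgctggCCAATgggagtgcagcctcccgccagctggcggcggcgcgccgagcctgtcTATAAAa

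The windows of *Gadd45b* and *Gadd45g* each held 1 TATAAA and 1 CACGTG, and neither word was found in that of *Gadd45a*. TATAAA began 46 bases before the RefSeq start of *Gadd45b* and 27 bases before that of *Gadd45g*, and CACGTG began at 185 and 142 bases. The RefSeq starts differ from the starts of the annotated genes given above, so these positions depend on the start used. The window of *Gadd45a*, at 67037428 to 67037657, overlaps its annotated gene, which reaches 67037457. Of 32851 RefSeq windows of the same length, 11.8% held TATAAA and 5.35% held CACGTG. *Gadd45a* held ATTTGCAT at 97 bases and its reverse complement ending at 63 bases before the start, and *Gadd45g* held it once at 103 bases, whereas 1.53% of windows had at least 1 match. CCAAT was found in all 3 members and in 32.2% of windows, and GGGCGG in *Gadd45a* and *Gadd45b* and in 29.8%. The cAMP response element (TGACGTCA), the AP-1 site (TGANTCA) and the NF-kB site (GGGANTTTC), held by 1.28%, 6.34% and 0.861% of windows, had no match in the 3 windows. No 2 of these words share bases in the windows shown. A match is a description of the letters, and binding of these windows by any factor was not measured. Whether any of these words bears on the levels of the 3 genes was not tested.

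The binding partners and pathway genes of Gadd45 proteins were examined next. Of 21 genes on this list, 1 was higher and 5 were lower in 2N cells, where 16.2% and 11.5% of all genes were, with a median log2 ratio of -0.38 against 0.00 over all genes tested. In 4N cells 1 of 20 was higher and 3 were lower, where 15.5% and 10.1% of all genes were, with a median of -0.25 against 0.03. *Map3k4*, the kinase that Gadd45 proteins activate, had 0.13 in 2N and 0.28 in 4N cells. *Map2k7*, the JNK kinase that *Gadd45b* blocks, had -0.02 and -0.07. The 5 lower genes in 2N cells were *Mapk11*, the p38 beta kinase, at -1.74, *Cdk1* at -1.48, *Ccnb1* at -1.41, *Pcna*, the replication clamp, at -1.30 and the phosphatase gene *Cdc25b* at -1.05. The 1 higher gene was *Map2k6*, a kinase of p38, at 1.23 in 2N and 1.05 in 4N cells. *Cdkn1a*, which encodes p21, had -0.28 and -0.58, and *Gadd45gip1*, which encodes a partner of GADD45G, had -0.75 and -0.71. The response of *Mapk13*, a gene with 4 to 30 counts, was the 1 of the list with a 4N response lower by over 1, at -1.24 (-2.40 to -0.08). Such a response was found in 3.6% of all genes.

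Genes of active DNA demethylation were divided. Among 12 genes, 3 were higher and 3 lower in 2N cells with a median of 0.22, and 3 were higher and 1 lower in 4N cells with a median of 0.47. Of all genes, 16.2% were higher and 11.5% lower in 2N cells, and 15.5% and 10.1% in 4N cells. *Tet2*, which oxidizes 5-methylcytosine, had 1.5 in 2N and 2.06 in 4N cells. The DNA glycosylase *Neil2* had 1.28 (0.61 to 2.01) and 2.06 (1.41 to 2.82), with 26 and 22 counts in vehicle 2N and 4N cells. The third higher gene, *Tet1*, had 18 and 17 counts there. *Neil2* and *Tet1* thus passed the limit of 30 counts only through the treated libraries, where they were high. *Apex1*, the abasic site endonuclease, had -1.53 and -2.04, and *Tdg*, the thymine DNA glycosylase, had -1.21 and -0.78. None of the 12 differed between the 2N and 4N responses by more than 1, where 3.6% of all genes were lower and 3.5% higher.

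Of the 5 other genes named for growth arrest and DNA damage or for their partners, 3 were higher beyond the fold after CYC065 in each sorted population and 0 were lower, with medians of 1.18 and 1.08. Of all genes, 16.2% were higher and 11.5% lower in 2N cells, and 15.5% and 10.1% in 4N cells. The 3 higher genes were *Ddit4*, an inhibitor of mTORC1 signaling, at 3.74 and 3.70, *Ppp1r15a* (GADD34), which directs dephosphorylation of eIF2α, at 1.28 and 1.08, and *Ddit3* (CHOP) at 1.18 and 1.65. *Ddit3* stands under 2 gene identifiers, of which the one with more counts was used, and its partly fractional counts show that reads were divided between loci. The other two were *Ppp1r15b*, at -0.36 and -0.38, and *Gadd45gip1*. None of the 5 differed between the responses by more than 1, where 3.6% of all genes were lower and 3.5% higher.

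The list of upstream regulators held 6 genes higher and 1 lower beyond the fold among 20 in 2N cells, and 4 higher and 0 lower among 19 in 4N cells. The medians of 0.13 and 0.11 were near those of all genes, of which 16.2% and 15.5% were higher and 11.5% and 10.1% lower beyond the fold. *Stat3*, the cytokine signal transducer, had 1.41 and 1.37, and the forkhead factors *Foxo1* and *Foxo4* had 1.42 and 1.27, and 1.23 and 1.07. *Egr1*, an immediate early factor, had 1.25 and 0.93, and its 4N level after CYC065 was below its 2N level by a log2 ratio of -1.18 (-1.21 to -1.14). The same ratio after vehicle was -0.86, so that its response differed between 4N and 2N cells by -0.32. *Trp53*, which encodes p53, had -0.69 and -0.72, and *Myc*, a repressor of *Gadd45a*, had 0.77 and 0.87. *Trp63*, among the 6 higher in 2N cells at 5.09, was the 1 gene of the list with a 4N response lower by over 1. Its vehicle libraries held 0 to 3 counts, and 3.6% of all genes had such a response.

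Of 22 p53 target genes tested, 7 were higher and 1 lower in 2N cells, and 6 were higher and 2 lower in 4N cells. Of all genes, 16.2% were higher and 11.5% lower in 2N cells, and 15.5% and 10.1% in 4N cells. The medians of 0.19 and 0.16 were near those of all genes. *Trp53inp1*, a stress-induced p53 cofactor, had 5.33 and 5.22, *Sesn2*, a sestrin, had 2.68 and 2.55, and the antiproliferative gene *Btg2* had 2.26 and 2.15. *Aen*, an apoptosis-enhancing nuclease, had -1.82 and -1.54, and *Mdm2*, the ubiquitin ligase of p53, had 0.09 and -0.05. None of the 22 had responses that differed by more than 1 between 2N and 4N cells. For all genes these shares were 3.6% lower and 3.5% higher in 4N cells.

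Of 18 NF-kB target genes, 4 were higher and 3 lower in 2N cells, and 4 were higher and 6 lower in 4N cells, with medians of 0.05 and -0.31. Of all genes, 16.2% were higher and 11.5% lower in 2N cells, and 15.5% and 10.1% in 4N cells. *Nfkbiz* and the chemokine *Cxcl1* had 1.83 and 1.57, and 1.69 and 1.12, and the early response gene *Ier3* had 1.79 and 1.49. *Traf1*, an adaptor of TNF receptors, had -2.42 and -2.92. The feedback inhibitors *Nfkbia* and *Tnfaip3* had -0.11 and 0.21 in 2N and -0.60 and -0.52 in 4N cells. The chemokine gene *Ccl2* was the 1 gene with a 4N response lower by over 1, at -1.17 (-1.34 to -1.0), and its ratio in 2N cells was -0.44. Such a response was found in 3.6% of all genes.

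Of 16 TGF-beta and SMAD target genes, 4 were higher and 1 lower in 2N cells, and 2 were higher and 3 lower in 4N cells, with medians of 0.29 and -0.08. Of all genes, 16.2% were higher and 11.5% lower in 2N cells, and 15.5% and 10.1% in 4N cells. *Id3*, an inhibitor of basic helix-loop-helix factors, had 1.78 and 1.26, *Bhlhe40* had 1.71 and 0.97, and *Tgfbi* had 1.65 and 1.55. The inhibitory SMAD gene *Smad7* had -0.92 and -1.23. In treated cells, the log2 ratio of 4N to 2N levels lay between -0.73 and -0.01 with a median of -0.44, against 0.00 over all genes. Beyond the fold were 0 of the 16, where 2.09% of all genes were lower and 1.49% higher. *Id2* was the 1 gene with a 4N response lower by over 1, at -1.17 (-1.35 to -0.99), where 3.6% of all genes were. *Gadd45b* and *Gadd45g*, at -1.70 each, had treated 4N to 2N ratios below those of every gene of this list. The same held for the tested genes of every other list, with a lowest ratio of -1.18 among the upstream regulators. *Gadd45b* was chosen with this difference known, so its place is a description.

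Most targets of the integrated stress response were higher beyond the fold after CYC065 in the sorted populations. Of 15 genes, 10 were higher in 2N and 9 in 4N cells, and 0 were lower, with medians of 1.24 and 1.43. Of all genes, 16.2% were higher and 11.5% lower in 2N cells, and 15.5% and 10.1% in 4N cells. *Atf4*, the central factor of this response, had -0.94 in both. The cystine transporter gene *Slc7a11* had 3.16 and 2.69, and *Atf3* had 2.30 and 2.15. Between the responses, 0 of the 15 differed by over 1, where 3.6% of all genes were lower and 3.5% higher. In unsorted cells 1 of 15 was higher and 3 were lower after CYC065, with a median of -0.38, where 12.6% of all genes were higher and 12.6% lower. Unsorted vehicle cells exceeded sorted vehicle cells beyond the fold in 6 of the 15 and in 7.77% of all genes. The median was 0.83 against -0.01 over all genes. *Slc7a11* was higher there by 3.75 (3.61 to 3.89), *Ddit4* by 3.72 (3.58 to 3.86) and *Sesn2* by 1.94 (1.81 to 2.06), beside 2.08 for *Gadd45g* and 1.83 for *Gadd45a*. These values share their control libraries with those of the sorted populations. The lists were chosen with earlier results known, and *Sesn2*, *Ddit3*, *Ddit4*, *Ppp1r15a*, *Cdkn1a* and others stand on more than 1 of them.

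**Figure D5:**
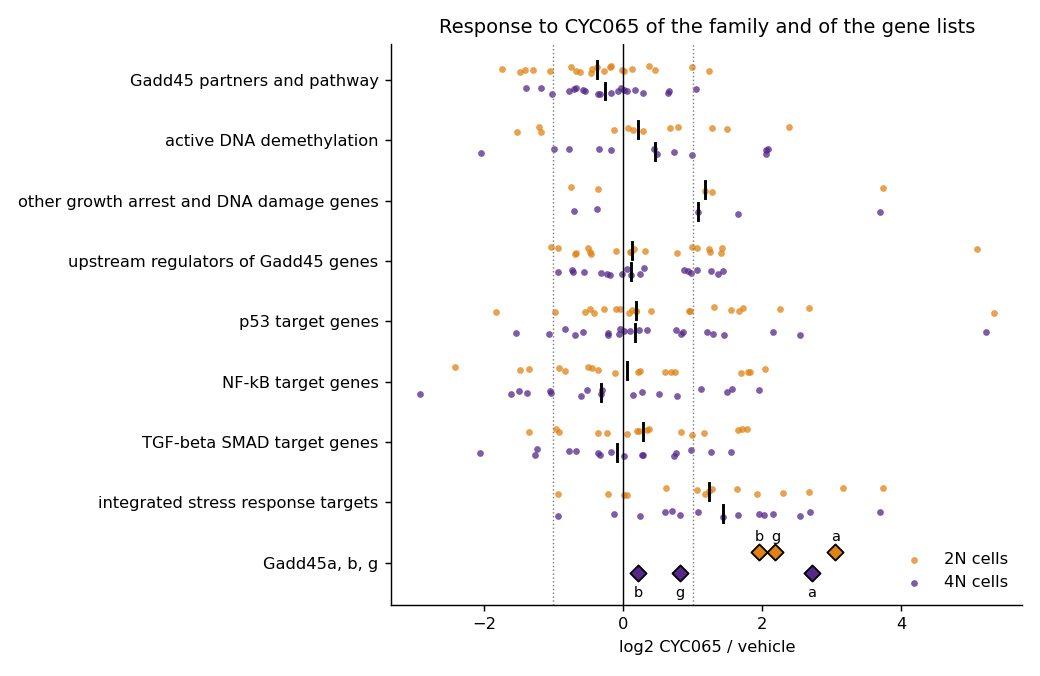
Log2 ratio of CYC065 to vehicle (x axis) for the tested genes of 8 lists and for the Gadd45 genes (bottom row, diamonds lettered a, b and g), in 2N cells (orange) and 4N cells (purple). Points are genes, thick black bars the medians of lists, and dotted lines stand at -1 and 1. *Gadd45b* lies at 1.96 in 2N and 0.22 in 4N cells, while the median of the integrated stress response list lies at 1.24 and 1.43.

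The genes whose profiles over the 6 libraries were most like those of each member were found by the root mean square (RMS) difference of centered log2 levels among 12384 genes with at least 100 counts in 1 library. Between members this difference was 0.62 for *Gadd45b* and *Gadd45g*, 0.99 for *Gadd45a* and *Gadd45g* and 1.12 for *Gadd45a* and *Gadd45b*. Of the genes compared, 24.4% were nearer to *Gadd45b* than *Gadd45g* was, and the median gene lay at 0.74 from *Gadd45b*, so that over all 6 libraries these members were not close neighbors. Nearest to *Gadd45a* were *Mgst1*, a microsomal glutathione transferase, and *Ypel3* at 0.12, *Gm26606* at 0.14, *Mxd4*, a MAX partner that opposes MYC, at 0.16 and *Mylip*, the ubiquitin ligase of the LDL receptor, at 0.17. *Mgst1* had log2 ratios of 2.96 in 2N, 2.93 in 4N and 1.42 in unsorted cells. Nearest to *Gadd45b* were *Tigd5* at 0.18, *E230001N04Rik* at 0.20 and *Spata33*, *Gm49463* and *C330011M18Rik* at 0.23. *Tigd5* had 1.49 in 2N and 0.49 in 4N cells, with 193, 168, 537 and 261 counts in vehicle 2N, vehicle 4N, CYC065 2N and CYC065 4N cells. The 5 neighbors of *Gadd45b* had ratios of 1.34 to 1.79 in 2N cells, each below the 1.96 of *Gadd45b*. All neighbors were picked by their likeness in these libraries, so their ratios are a description. *E230001N04Rik*, *Spata33* and *C330011M18Rik* reached 100 counts in CYC065 2N cells alone, with 141, 111 and 215 counts. *Gm26606* reached 100 counts in treated libraries alone.

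No gene came as near to *Gadd45g*. Its nearest were *1700120C14Rik* at 0.28, *Brd3os* at 0.39, *Gm3448* at 0.41 and *Casp1*, the inflammatory caspase, and *4932422M17Rik* at 0.43. *1700120C14Rik* had log2 ratios of 1.67 in 2N, 0.81 in 4N and -0.71 in unsorted cells, beside 2.19, 0.82 and -0.70 for *Gadd45g*. *Casp1* had 2.06, 1.82 and -1.05, so that it followed *Gadd45g* in unsorted cells and was high in both sorted populations. In vehicle 2N and 4N cells *Gadd45g* had 97 and 81 counts, *1700120C14Rik* 45 and 39, and *Casp1* 36 and 31. Counting error adds to the RMS difference at such counts, and its share in these distances was not tested. These likenesses are over 6 libraries and describe profiles.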

How the data were processed

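RNA-Seq was performed on vehicle- and CYC065-treated ED1SQ4 cells, unsorted or sorted as 2N and 4N. Per the labels, the processing notes name bcl2fastq 2.17, cutadapt 1.18, STAR 2.7.0f, RSEM 1.3.1 and mm10, and the study's methods name GENCODE M21, rRNA depletion and stranded paired-end libraries. For bcl2fastq and RSEM the study's methods name other versions than the processing notes. The deposited values are expected counts that the authors estimated with RSEM, without normalization, and 9.66% of the 55450 genes had a fractional value. The counts of the 3 Gadd45 genes were whole.

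The 18 columns were summed into 6 libraries, since the 3 columns of a condition carry library names that mark parts of 1 library and differed by no more than sampling noise over whole counts. Over genes with fractional counts, taken before rounding, the columns differed by more (chi-square per degree of freedom of 4.353 to 7.596). Fractional counts were then rounded to whole numbers for the count tests. Libraries were scaled with TMM (edgeR 4.0.16, R 4.3.3). Log2 ratios used a prior count of 0.5 and genes with 30 or more counts in 1 library compared, and a log2 ratio beyond 1 was taken as beyond the fold. Intervals were exact conditional binomial (Clopper-Pearson) for 2 libraries and normal for more, and cover counting error only. Reads without molecular identifiers are not independent molecules. No P value compares conditions. Python 3.11.15, pandas 2.3.3, NumPy 2.4.6 and SciPy 1.17.1 were used, and the ratios and intervals were tested on simulated data.

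The genes named were the 3 members, the 5 nearest profiles of each, up to 4 genes of each list with the largest ratio in 2N cells and 100 or more counts, and 12 regulators and partners, and 1 gene of this rule is not reported here. *Mapk13*, *Trp63*, *Tet1*, *Ccl2*, *Id2*, *Map2k6*, *Cdc25b*, *Ppp1r15b* and *Atf4* were named after their values were seen. The members and lists were chosen with earlier results of these data known. Same-numbered columns of different conditions deviated with correlations of -0.566 to 0.395 over 45 pairs. These were taken over genes with mean counts of 100 or more, fractional ones included. Their sign was not constant, so the numbers were not taken to pair the columns. Alternatives were library size, DESeq2 (1.42.0) or separate TMM scaling, a prior count of 2, other filters, an interval wholly beyond 1, an assumed coefficient of variation of 0.2, leaving out each column, and edgeR or DESeq2 on the columns.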

Additional observations from a re-analysis of the deposited data

Results flagged for a closer look

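The response of *Gadd45b* to CYC065 differed between 4N and 2N cells by -1.74 on the log2 scale, and that of *Gadd45g* by -1.38, with counting intervals that exclude 0. *Gadd45b* was chosen with its difference known, and the family with earlier results in view, so these values are a description. The response in unsorted cells differed from the mean of the sorted responses by -1.25 for *Gadd45a* and -2.20 for *Gadd45g*, and for *Gadd45g* the unsorted and sorted responses had opposite signs. Each condition has 1 library, so none of these differences was tested against the spread between cultures.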

How the results depend on the processing

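Of 234 values of the 3 *Gadd45* genes under the alternatives, 232 stayed within the counting interval of the reported value, and 0 of those beyond the fold changed sign. Scaling by library size alone gave 0.39 for *Gadd45a* and -0.70 for *Gadd45b* in unsorted versus sorted CYC065-treated cells. The 4N minus 2N response ranged from -1.80 to -1.72 for *Gadd45b*, from -1.45 to -1.34 for *Gadd45g* and from -0.45 to -0.20 for *Gadd45a*. The near-0 ratios of 4N to 2N vehicle cells ranged from -0.12 to 0.22 for *Gadd45a* and from 0.00 to 0.10 for *Gadd45b*.

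Counts of genes beyond the fold followed the filter. In the order 2N, 4N and unsorted drug response, 4N versus 2N after CYC065 and after vehicle, 4N minus 2N response, and unsorted versus sorted after vehicle and after CYC065, they were 3904, 3631, 3549, 508, 360, 1028, 1515 and 973. With no filter they were 11647, 10890, 10311, 7070, 5490, 9624, 6503 and 5943. In the last 5 comparisons, 100 or more counts left 218, 120, 307, 901 and 488, and an interval wholly beyond 1 left 165, 74, 109, 840 and 407. The 4N minus 2N response had 541 genes by edgeR's quasi-likelihood test of single columns, 530 with the replicate block and 344 by DESeq2. The column numbers were not taken to pair the samples, and these tests compare libraries, not conditions.

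With 1 library per condition, depth limits the *Gadd45g* values most, at 81 and 97 counts in sorted vehicle cells. Spread between cultures was not measured.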
